A study of Rattus norvegicus with 4 samples.

Results

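The cytosolic ribosomal protein genes were examined in rat blood, in single-cell RNA libraries of 4 groups. Members were chosen by symbol (Rps or Rpl followed by a digit, leaving out the Rps6k kinases), which gave 113 of the 25340 genes listed. They carried 101 distinct symbols, 44 rows for the small subunit (Rps) and 69 for the large subunit (Rpl). Of these rows, 10 were named as pseudogenes and 22 shared 10 symbols with another row. Of 73 standard ribosomal protein symbols of this form, 71 had a row, and Rps13 and Rps26 were not analysed here. No UMI was seen for 6 members in the barcodes kept, 15 had fewer than 50 UMIs, and 91 passed the filter on low counts for the test between cell classes.

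Ribosomal proteins assemble with ribosomal RNA into the small and large subunits that translate every messenger RNA. Their messengers are among the most abundant in a lymphocyte, and most begin with a run of pyrimidines at the cap, the 5′ terminal oligopyrimidine (TOP) tract, through which growth signals acting on the mTOR kinase control their translation. A few have paralogs that take the place of the standard protein in some tissues, and inherited loss of 1 copy of several of them causes Diamond-Blackfan anemia, a failure of red cell production.

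The study compared intrathecal and intravenous umbilical cord mesenchymal stromal cells (MSC) in a rat model of traumatic spinal cord injury made by weight drop (Allen's method). It assigned 40 rats, 10 to each of Sham, SCI (injury without cells), MSC-i.t (10000000 cells/kg by the intrathecal route) and MSC-i.v (30000000 cells/kg by vein), and both cell groups were dosed at 72 hours and again at 7 days after injury. The dose therefore differed with the route. The design text counts the sham rats among the injured ones and does not describe the sham operation. Strain, sex, age, the time of blood collection and how many rats each library pools were not given in the sources used here. The deposited files of the SCI library carry the tag Pre where those of the other 3 libraries carry a tag in hours, and what Pre stands for is not given, so any difference in sampling time cannot be told apart from the group in any comparison with SCI. Each group was 1 library, so a difference between groups is a difference between 2 libraries and has no replicate check.

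The libraries held 63133881 to 91124523 UMIs, of which 8527 to 16998 barcodes per library had at least 500 UMIs and 200 genes and were kept, with median UMIs of 3764 (MSC-i.v) to 5719 (SCI). Any 2 libraries shared 28 to 51 of these barcodes, at most 0.586% of a library. Barcodes were placed in 8 classes by marker genes (CD4 T, CD8 T, NK and B cells, classical and nonclassical monocytes, erythroid cells and platelets), none of which is a ribosomal protein gene. The gates were built on these markers, so marker levels describe the gates and are no separate check of the class names. Summed Cd3 genes were 2161 to 2382 CPM (UMIs scaled to a common library total) in CD4 T cells. They were 0 in NK cells, where the gate required that. The 5 B cell genes were 3774 to 4166 CPM in B cells and 10.7 to 29.2 CPM in CD4 T cells. T cells in which Cd4 and Cd8 RNA did not decide the class made up 28.2% to 34.4% of kept barcodes and entered neither T class, so the CD4 class of 606 to 784 cells is a sample of the cells in which Cd4 RNA was caught. Barcodes that met several gates, 3.87% to 9.07%, were left out.

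Promoter windows of members are shown because the TOP tract is the sequence feature the family is known for. RefSeq promoters on the GRCr8 assembly matched 67 of the 101 symbols, and the 15 bases on either side of the annotated start were read. Capitals mark the longest run made only of C and T.
Rps23: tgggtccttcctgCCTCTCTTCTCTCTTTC
Rpl10: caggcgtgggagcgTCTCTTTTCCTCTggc
Rpl35a: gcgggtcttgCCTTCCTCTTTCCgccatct
Rpl37: tggtaggcgtaCTTTCTCTTCCggtctctt
Rps10: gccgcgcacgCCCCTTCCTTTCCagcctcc
Rpl12: ggagcaacatccgTCTTTTCggctttcggt
Rpl22: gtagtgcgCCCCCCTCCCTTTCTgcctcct
Rpl22l1: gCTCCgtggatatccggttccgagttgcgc
Rpl3: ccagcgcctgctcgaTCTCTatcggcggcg
Rpl3l: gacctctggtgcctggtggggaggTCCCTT
Rpl36a: ccgcctataaaCTTCCgttgctgctctagc

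These windows lie at chr2:23814502-23814531 on the plus strand for Rps23, chrX:157205835-157205864 (plus) for Rpl10, chr11:81235007-81235036 (minus) for Rpl35a and chr2:55942930-55942959 (plus) for Rpl37. Those of Rps10, Rpl12 and Rpl36a are at chr20:5700730-5700759 (minus), chr3:36661925-36661954 (plus) and chrX:102059434-102059463 (plus). The paralog pairs lie at chr5:168117946-168117975 (Rpl22, plus) and chr2:113683181-113683210 (Rpl22l1, plus), and at chr7:113507976-113508005 (Rpl3, minus) and chr10:14258431-14258460 (Rpl3l, plus). All are promoter and first-exon sequence around the start site.

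A C/T run of 8 or more bases stood in 40 of the 67 member windows (59.7%), against 11.4% of 33469 promoter windows of the same length and 13.8% of 65 windows of mitochondrial ribosomal protein genes. The median longest run was 9 bases in members and 4 in all promoters. The motif CTTTC, which such a run can contain, was on the sense strand of 24 member windows (35.8%), 3.59% of all windows and 4.62% of the mitochondrial set, and on either strand of 37.3% of members and 7.32% of all. Rpl22 has a run of 15 bases and its paralog Rpl22l1 one of 4. A match describes these letters only, and the counts below do not test it. Rps29 and Rpl30, named below, had no entry.

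T cells devoted the highest share of their messengers to ribosomal proteins. Here and below, where 4 values follow each other they belong to Sham, SCI, MSC-i.t, then MSC-i.v. In CD8 T cells the members held 42.2%, 40.6%, 42.3% and 41.9% of UMIs, and in CD4 T cells 39.5%, 38.2%, 40.5% and 39.1%. NK cells followed at 28.7%, 26.8%, 28.6% and 29.7%, and B cells at 28.6%, 27.4%, 29.3% and 29.4%, so the ranges of these 2 classes overlapped. Classical monocytes had 20.2%, 17.3%, 19.4% and 20.0%, and nonclassical monocytes 15.0%, 13.6%, 15.8% and 15.9%. Within each library CD8 T cells stood above CD4 T cells, and CD4 T cells above each of the other 6 classes, in 4 of 4 libraries. NK and B cells had no fixed order. For the 6 leukocyte classes exact 95% binomial intervals of these shares were at most 0.23 percentage points wide, and they cover counting error only. CD8 T cells also had more UMIs per cell than CD4 T cells. Among barcodes of 2000 to 6000 UMIs the median shares over cells were 42.0%, 38.7%, 41.4% and 43.5% in CD8 T cells. In CD4 T cells they were 40.3%, 37.8%, 40.8% and 40.7%. The order of these 2 classes held, with a smaller gap in each library than over all their barcodes.

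**Figure D1:**
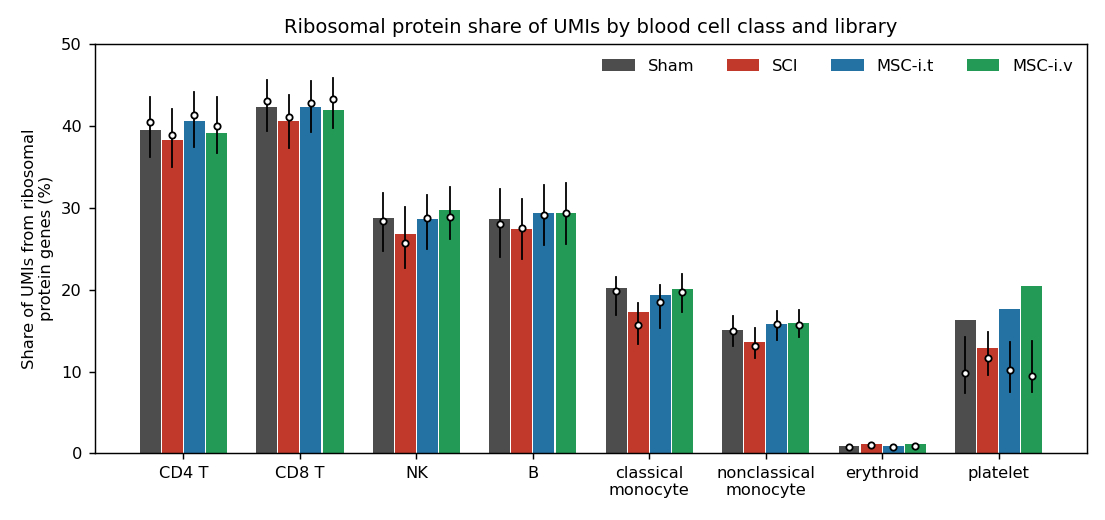
Share of UMIs from the 113 ribosomal protein genes (vertical axis, %) in 8 blood cell classes (horizontal axis), with 1 bar per library for summed UMIs and a white point and line for the median and quartiles over cells. CD8 T cells are highest at 40.6% to 42.3%, erythroid barcodes lowest at 0.868% to 1.15%, and in platelets the bars stand above the cell medians.

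Erythroid barcodes gave 0.927%, 1.15%, 0.868% and 1.13%. Hemoglobin took 91.6% to 92.8% of their UMIs, and of the UMIs left after hemoglobin and mitochondrial genes the members had 12.5%, 14.6%, 12.5% and 14.0%. Platelet barcodes gave 16.3%, 12.8%, 17.7% and 20.4% of summed UMIs, but the medians over cells were 9.82%, 11.7%, 10.1% and 9.51%. The platelet order of SCI and Sham thus turned between the sum and the cell median, and no platelet difference between libraries is read here. Barcodes of 10 to 100 UMIs, which hold mostly free RNA, had 31.9%, 39.1%, 35.7% and 31.3%.

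Each UMI marks 1 captured molecule whatever its length, so CPM can be compared between genes here without scaling to length. Among the members at the highest mean level in CD4 T cells were Rps18 (13860, 13469, 13634 and 14158 CPM), Rps23, Rpl13 and Rps16, the last at 9063 to 10248 CPM. Rps23 sits at the decoding site of the small subunit. No member dominated: Rps18 was 3.36% to 3.62% of members' UMIs in CD4 T cells, the top 10 members together 25.9% to 26.6%, and small-subunit genes 46.0% to 46.4%. Erythroid barcodes were led by Rpl41.

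Most members were higher in CD8 than in CD4 T cells by a small amount. With edgeR's quasi-likelihood test on UMIs summed per library and class, library as a block and Benjamini-Hochberg adjustment over 9220 genes, 58 of 91 tested members rose (background 8.97% of all genes) and 1 fell (background 7%). The members' median log2 fold change was 0.19, against 0.02 for all genes. Among the highest were Rpl13 at 0.36 ± 0.06 (SE, 4 libraries, adjusted p = 2.21e-05) and Rpl13a at 0.31. The member that fell, Rps19bp1, encodes a binding partner of the Rps19 protein rather than a part of the ribosome, and had a log2 fold change of -0.35 ± 0.07. The count of 58 was 11 with library totals in place of TMM factors, 0 without the library block, and 18 without the Sham library.

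NK and B cells had lower members almost throughout. In NK against CD4 T cells 0 members rose and 87 of 91 fell by the same test (background 17.6% in each direction), with a median of -0.78. At an unadjusted p under 0.05 edgeR had 1 member higher, Rps4y2 (0.70, adjusted p = 0.0855), and DESeq2 called 1. The members that fell least were Rpl10 (-0.53), Rpl36al (-0.55) and Rpl13a (-0.56). Those that fell most were Rpl37-ps1 and Rpl31l4, at low counts, and Rpl36a at -1.14 ± 0.07 (edgeR adjusted p = 1.16e-15). In B against CD4 T cells 1 member rose (background 27%) and 87 fell (background 26.3%), with a median of -0.68. Rpl36a was again among the lowest at -1.22, with Rpl12 at -1.18 and Rps18l1 at -1.10.

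Over all kept barcodes nonclassical monocytes were the leukocytes with the lowest members. Against CD4 T cells 89 of 91 fell (background 32.8%) and 2 rose (background 32%), with a median of -1.73 against -0.08 for all genes. Rpl36a had a log2 fold change of -2.93, Rpl12, at the base of the stalk where elongation factors bind, -2.51, and Rpl13a (row ENSRNOG00000062298) -2.44. The 2 that rose rested on few UMIs: Rps4y2 (0.82 ± 0.30) had 7 to 20 UMIs per library in the monocytes, and Rpl3l 4 UMIs in all 4 libraries. Rpl10, a late-joining large-subunit protein near the peptidyl transferase centre, fell far less than the median. It was 4616, 3552, 4310 and 4626 CPM in nonclassical monocytes and 4679, 4575, 4881 and 4970 CPM in CD4 T cells, and its fold change was -0.51 ± 0.06.

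Over all kept barcodes classical monocytes stood between nonclassical monocytes and lymphocytes, but they also had more UMIs per cell than nonclassical ones. Among barcodes of 2000 to 6000 UMIs the median shares over cells were 16.4%, 13.4%, 16.6% and 18.6% in classical monocytes. In nonclassical monocytes they were 15.2%, 13.5%, 15.8% and 15.9%. The gap was smaller at this depth, and in SCI, with 22 classical cells, the order turned. The test that follows was not run at this depth. In classical over nonclassical monocytes 74 of 91 members rose (background 16.7%) and 1, Rpl26-ps1, fell (background 14.8%), with a median of 0.55. Rpl13a rose by 1.34 ± 0.08, Rps2 by 1.17 ± 0.07 and Rpl37-ps1 by 1.60 ± 0.57. Rps23 (0.16) and Rpl35a (0.18) rose least, and both turned negative with library totals (-0.07 each). With library totals the median of all genes lay between -0.24 and 0.28 in the 5 contrasts, against -0.08 to 0.02 with TMM factors. The members' medians against CD4 T cells were then 0.07 in CD8 T cells, -0.47 in NK cells, -0.43 in B cells and -1.39 in nonclassical monocytes. In classical over nonclassical monocytes the members' median was 0.30. Their directions held, but each was smaller than with TMM factors, so the sizes depend on the normalization.

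To ask which members differed beyond this common shift, each was scaled to the UMIs of all 113 members, a step added after the data were seen, as was the choice of the genes named from it. On this scale 30 of 91 members were higher in nonclassical monocytes than in CD4 T cells and 31 lower by the edgeR test. The background on this scale was 77.9% higher and 5.67% lower. Scaling members to their own total centres them, so some must go each way, and the background mirrors their common shift. In NK cells 20 were higher and 18 lower (background 62.8% and 4.36%), in B cells 28 and 20 (73.7% and 7.11%), in classical over nonclassical monocytes 23 and 22 (6.05% and 49.4%), and in CD8 T cells 1 and 3 (3.78% and 26.3%). By this test few members differed between CD4 and CD8 T cells. The SD of the members' fold changes on this scale was 0.11 in CD8 T cells and 0.34 in NK cells. The CD8 differences were also counted library by library. Of 90 members with at least 50 CD8 UMIs in each library, 21 were higher and 38 lower than in CD4 T cells in 4 of 4 libraries. In NK cells these were 30 and 22 of 79. This count was not made over all genes, so it has no background and no more is read from it.

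Rpl10 took a larger part of the pool in monocytes. Its pool-scaled log2 fold change was 1.22 ± 0.04 in nonclassical monocytes (edgeR adjusted p = 8.13e-21), and 1.13 to 1.37 in the single libraries. In classical monocytes the single libraries gave 1.42 to 1.57, and Rpl10 led the pool there in SCI (3.54%) and MSC-i.v (3.48%). It was also higher in NK (0.24 ± 0.04) and B cells (0.22 ± 0.04). Rpl18 (0.71 ± 0.04), Rps14 (0.64 ± 0.04) and Rps25 (0.54 ± 0.05), a protein used by viral internal ribosome entry sites, were higher in nonclassical monocytes too. Lower within the pool there were Rpl36a (-1.20 ± 0.04), Rpl12 (-0.78 ± 0.04), Rpl13a (-0.72 ± 0.06) and Rpl3 (-0.69 ± 0.05), the last a core protein close to the peptidyl transferase centre.

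**Figure D2:**
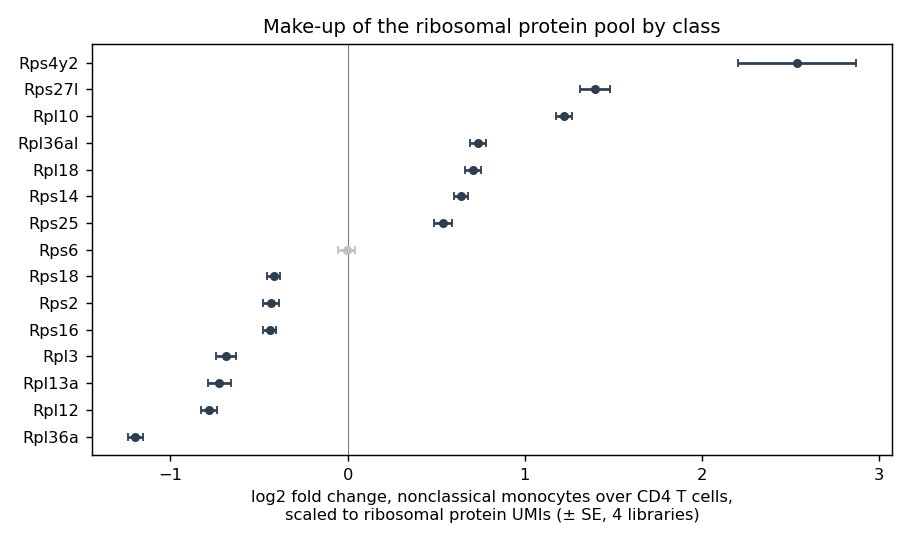
Log2 fold change (horizontal axis, with SE from edgeR over 4 libraries) of 15 members in nonclassical monocytes over CD4 T cells after scaling to ribosomal protein UMIs. Rps27l, Rpl10 and Rpl36al stand to the right of 0, Rpl36a, Rpl12, Rpl13a and Rpl3 to the left, and Rps6, in grey, did not pass the test.

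The Rpl36a pair was the clearest case of a changed paralog balance. Rpl36a and Rpl36al encode nearly the same large-subunit protein from separate genes, so reads that fit both may not have been counted and the split is uncertain to that extent. Rpl36al held 32.3%, 29.8%, 30.6% and 34.4% of the pair's UMIs in CD4 T cells. In B cells it held 46.9%, 45.6%, 46.1% and 49.1%, and in nonclassical monocytes 65.8%, 61.5%, 62.2% and 66.1%. Classical monocytes were at 61.8% to 64.5%, NK cells at 38.6% to 44.9% and CD8 T cells at 29.9% to 33.8%. No library of a monocyte class overlapped any library of a lymphocyte class. On the pool scale Rpl36al was higher in NK cells (0.22 ± 0.04), B cells (0.41 ± 0.04) and nonclassical monocytes (0.73 ± 0.05) while Rpl36a was lower in each (-0.36, -0.51 and -1.20).

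Rps27l, a paralog of Rps27 known as a target of p53, also took a larger part in NK cells, B cells and monocytes than in T cells. It was 2.31%, 1.90%, 2.12% and 2.85% of the pair's UMIs in CD4 T cells, 4.92%, 4.57%, 4.56% and 4.86% in NK cells, and 5.47%, 3.88%, 5.12% and 5.89% in nonclassical monocytes. Erythroid barcodes, at 2.77%, 3.01%, 2.31% and 2.81%, overlapped CD4 T cells. Its pool-scaled fold change was 0.94 ± 0.08 in NK cells, 0.55 ± 0.07 in B cells and 1.40 ± 0.08 in nonclassical monocytes. Before pool scaling its value in nonclassical monocytes was -0.32, and 0.02 with library totals.

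In the Rpl22 pair the paralog had a smaller part in B cells and monocytes than in T cells, but not in NK cells. Rpl22 binds RNA and is needed for T cell development, and Rpl22l1 can replace it in the ribosome. Rpl22l1 held 29.2%, 26.3%, 28.1% and 27.5% of the pair in CD4 T cells, 29.6%, 28.5%, 29.1% and 28.0% in NK cells, 23.5%, 21.9%, 22.5% and 20.9% in B cells, and 18.7%, 16.4%, 17.7% and 14.2% in classical monocytes. Within the pool Rpl22l1 was lower in nonclassical monocytes (-0.39 ± 0.05) and higher in NK cells (0.15 ± 0.05), and Rpl22 was higher in B cells (0.33 ± 0.04).

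**Figure D3:**
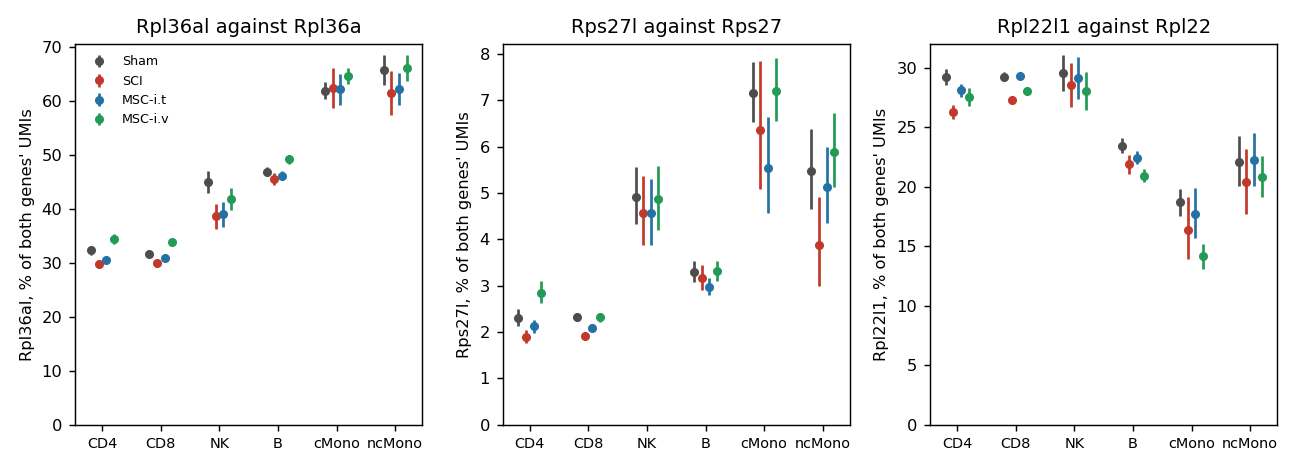
Share of the paralog in the UMIs of each pair (vertical axes, %) for Rpl36al, Rps27l and Rpl22l1 in 6 leukocyte classes (cMono classical, ncMono nonclassical monocytes), 1 point per library with its exact 95% binomial interval. Rpl36al is under 35% in T cells and over 60% in monocytes.

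Rpl3l, the muscle paralog of Rpl3, was found in B cells and, at few UMIs, in classical monocytes. It had 70, 45, 37 and 45 UMIs there, and 0, 0, 1 and 1 in CD4 T cells, which had more UMIs per cell. Summed over libraries this was 197 against 2 UMIs, a ratio of 88.6 with a counting interval of 24.2 to 737, and the edgeR test gave adjusted p = 7.14e-12 with the B cell level higher in 4 of 4 libraries. A Rpl3l UMI was seen in 3.55%, 2.90%, 2.05% and 1.82% of B cells (medians of 2714, 3282, 3070 and 2078.5 UMIs), and in 0%, 0%, 0.128% and 0.144% of CD4 T cells (4988.5, 5930.5, 5668 and 3738.5 UMIs). The zeros allow a share of CD4 T cells with a UMI of up to 0.495% (Sham) and 0.394% (SCI), which does not limit the share of cells that express the gene. In barcodes of 10 to 100 UMIs Rpl3l was 0.000661%, 0.00171%, 0.000860% and 0.000513% of members' UMIs, against 0.00560%, 0.00546%, 0.00263% and 0.00295% in B cells. Even in B cells it was 7.72 to 16.0 CPM. Whether these UMIs come from overlapping transcripts was not tested. Classical monocytes had 7, 1, 3 and 1 UMIs of Rpl3l and CD8 T cells 5, 2, 2 and 3. Rpl39l had 0 UMIs in all 8 classes, and Rpl10l at most 3 UMIs in any class of a library. Rpl7l1, a relative of Rpl7 that works in ribosome assembly, was higher within the pool of B cells at 0.90 ± 0.24. This rested on few UMIs, 27, 15, 18 and 39 in B cells and 10, 18, 19 and 17 in CD4 T cells.

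Erythroid barcodes had the most uneven pool. Rpl41, the smallest ribosomal protein, held 9.25%, 6.20%, 8.22% and 6.58% of members' UMIs, against 2.42%, 2.29%, 2.38% and 2.25% in CD4 T cells. Rps2 held 6.03%, 4.68%, 4.64% and 4.84% against 1.95%, 2.27%, 1.89% and 2.10%. Rps29 was higher by 0.81 to 0.85 on the log2 scale in every library, and Rpl5 lower by -0.99 to -0.72. Of 75 members with at least 50 erythroid UMIs in each library, 17 were higher and 49 lower than in CD4 T cells in 4 of 4 libraries. No test was run on these barcodes, and this count was not made over all genes.

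The genes of Diamond-Blackfan anemia did not move together in erythroid barcodes. On that list, Rps26 was not analysed here and Rps19 had 0 UMIs in 1 erythroid library. Rpl5, Rpl26 (-0.53 to -0.24), Rps7 (-0.45 to -0.28) and Rpl35a (-0.43 to -0.07) took a smaller part of the pool than in CD4 T cells in 4 of 4 libraries, and Rps24 (0.14 to 0.36) and Rps10 (0.10 to 0.40) a larger one. Rpl11 had both signs. Rps19 was at 5.15 to 11.7 CPM in CD4 T cells, far under the other small-subunit genes, and its reads may be shared with near-identical copies, so its level is uncertain.

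Between libraries the share held by all members together differed little in T cells and more in monocytes. In CD4 T cells the log2 ratio of the shares was -0.05 for SCI over Sham, 0.09 for MSC-i.t over SCI and 0.03 for MSC-i.v over SCI. The 3 comparisons share the SCI library. With the marker minimum doubled the first became 0.000988, and against Sham the MSC-i.v value was -0.01, so neither sign is read. SCI over Sham was -0.06 in CD8 T cells, -0.10 in NK cells, -0.06 in B cells, -0.23 in classical and -0.15 in nonclassical monocytes. MSC-i.t over SCI was 0.06 in CD8 T cells, 0.09 in NK cells, 0.10 in B cells, 0.17 in classical and 0.22 in nonclassical monocytes, and MSC-i.v over SCI was 0.05, 0.15, 0.10, 0.21 and 0.23. The SCI library had only 61 classical monocytes and 128 nonclassical ones. Beside this, mitochondrial genes held 4.42% of SCI CD4 UMIs and 4.29% of Sham ones, hemoglobin was highest in MSC-i.v (1.66% against 0.541% to 0.682%), and the free-RNA share of members was higher in SCI than in Sham (39.1% and 31.9%). Their part in the result was not tested.

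Few members passed 1.5-fold between libraries in CD4 T cells. In SCI over Sham 2 of the 86 members with at least 50 UMIs in 1 of the libraries were that much higher (background 11.6% of 5777 genes) and 1 lower (background 1.09%). In MSC-i.t over SCI 4 were higher (background 0.93%) and 2 lower (11.7%), and in MSC-i.v over SCI 1 higher (1.3%) and 2 lower (11.8%). The members' median was -0.04 in SCI over Sham against 0.07 for all genes, and their SD 0.25 against 0.54, a smaller spread among members. In the other leukocyte classes SCI over Sham gave 1 higher and 2 lower of 90 members in CD8 T cells (background 9.82% and 1.46%), 0 and 2 of 81 in NK cells (9.31% and 3.77%) and 1 and 2 of 87 in B cells (8.23% and 2.46%). Classical monocytes gave 0 and 3 of 81 (12.9% and 7.82%), and nonclassical monocytes 0 and 3 of 78 (8.16% and 4.21%).

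The members at the ends ranged from abundant genes to genes with few UMIs, and most stayed under 1.5-fold in SCI over Sham. Rps29, a zinc-binding protein of the small-subunit head, was 6341, 4338, 6631 and 4762 CPM in CD4 T cells, so Sham and MSC-i.t were high and the other 2 low. The SCI over Sham log2 ratio was -0.55 (counting interval -0.58 to -0.52). Rpl37, also zinc-binding, was 3831, 2610, 3982 and 3117 CPM (-0.55 in SCI over Sham), with SCI lowest and MSC-i.v between. Rpl35a was 1257, 933, 1318 and 905 CPM (-0.43), with SCI and MSC-i.v both low. Rpl34-ps1 (104, 50.1, 112 and 84.1 CPM) and Rpl6-ps1 (546, 373, 589 and 500 CPM) were lowest in SCI as well, but pseudogene names make the assignment of their reads uncertain.

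Rpl30, a protein at the contact of both subunits, ran opposite. It was 452, 679, 528 and 513 CPM, highest in SCI (log2 ratio over Sham 0.59, counting interval 0.50 to 0.68). Rps10 was 643, 804, 688 and 819 CPM (0.32), high in SCI and MSC-i.v. Rpl21 (row ENSRNOG00000032803) was 40.4, 58.1, 47.7 and 33.7 CPM and Rpl5l1 71.6, 89.0, 67.4 and 93.1 CPM. Rps19 had the highest ratio, 1.13, on 17 and 56 UMIs. In MSC-i.t over SCI the same Rps29, Rpl37 and Rpl35a were at 0.61, 0.61 and 0.50, and Rpl30 at -0.36, beside Rps18l1 at -0.59. In MSC-i.v over SCI Rpl37 was at 0.26, Rps27l at 0.42, Rps18l1 at 0.34, Rpl30 at -0.40, Rpl26-ps1 at -0.38 and Rps21-ps1 at -0.33. These comparisons share the SCI library.

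The same members differed in the other cell classes of the same 2 libraries. As a share of members' UMIs, the SCI over Sham log2 ratio of Rps29 was -0.50 in CD4, -0.47 in CD8, -0.40 in NK and -0.51 in B cells, -0.30 in classical and -0.61 in nonclassical monocytes and -0.52 in erythroid barcodes. Rpl37 gave -0.51, -0.50, -0.60, -0.49, -0.43 and -0.61 in the 6 leukocyte classes, and Rpl30 0.64, 0.61, 0.47, 0.69, 0.56 and 0.33. Rpl12 gave 0.29, 0.24, 0.24, 0.28, 0.19 and 0.30. The free RNA of the same libraries showed Rps29 at 1.83% of members' UMIs in Sham and 1.24% in SCI, and Rpl30 at 0.128% and 0.183%. All classes of a group come from 1 library, so a difference of the animals and one of the library preparation cannot be told apart, and a difference found in every class and in free RNA is 1 observation, not several.

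**Figure D4:**
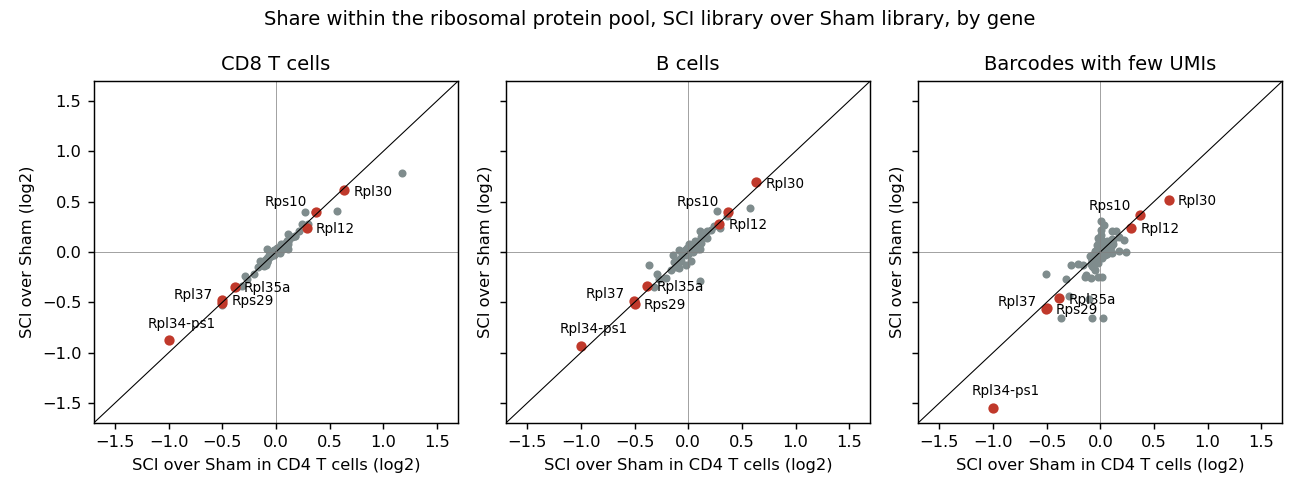
Log2 ratio of each member's share of ribosomal protein UMIs, SCI over Sham, in CD4 T cells (horizontal axis) against CD8 T cells, B cells and barcodes of 10 to 100 UMIs (vertical axes), 1 point per member with at least 50 UMIs, and the line of equal values. Rps29, Rpl37 and Rpl35a lie low and Rpl30, Rps10 and Rpl12 high on all panels, which draw on the same 2 libraries.

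In CD8 T cells the mix of members differed least between Sham and MSC-i.t. The SD of the members' log2 ratios within the pool was 0.06 for these libraries. It was 0.22 between SCI and Sham and 0.17 between MSC-i.v and Sham. These SDs cover only the 85 or 86 members that also reached the UMI minimum in CD4 T cells. Over the 90 members that reached it in CD8 T cells they were 0.14, 0.25 and 0.20, a smaller contrast. All these values share the Sham library. In CD4 T cells 0 of 85 members passed 1.5-fold in MSC-i.t over Sham in either direction (background 1.22% higher and 1.36% lower). MSC-i.v followed SCI for some members and Sham for others. In CD8 T cells Rpl35a was 0.300%, 0.236%, 0.310% and 0.223% of members' UMIs and Rps10 0.162%, 0.213%, 0.176% and 0.214%, so MSC-i.v was near SCI. For Rpl30 (0.112%, 0.172%, 0.129% and 0.129%) and Rpl12 (1.13%, 1.33%, 1.15% and 1.17%) it was nearer to Sham and MSC-i.t.

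**Figure D5:**
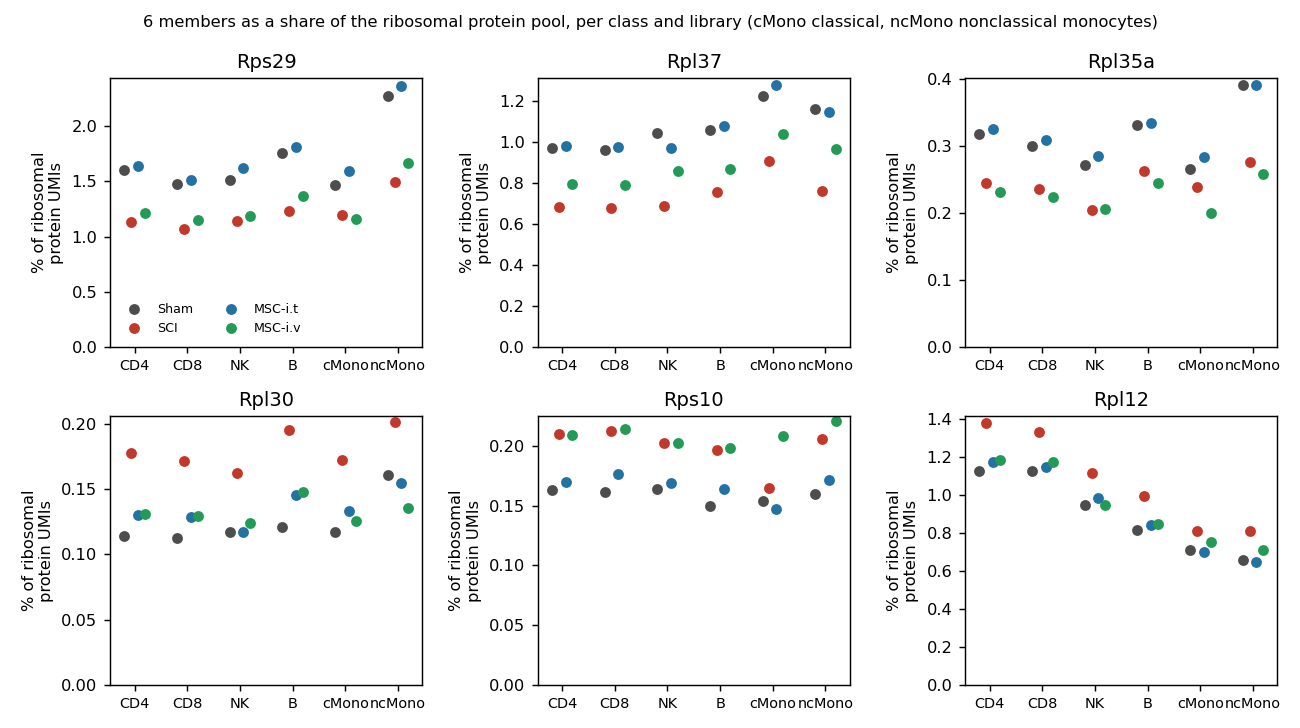
Share of ribosomal protein UMIs (vertical axes, %) of 6 members in 6 leukocyte classes, 1 point per library. For Rps29 and Rpl37 Sham and MSC-i.t stand above SCI and MSC-i.v in each class, and for Rpl30 SCI is highest in each.

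Genes that work with the ribosome were read on lists chosen with the members. Of the ribosomal proteins named otherwise (such as Rplp0, Rplp1 and Rpsa), 5 were tested and all 5 fell in NK cells, B cells and nonclassical monocytes against CD4 T cells, and rose in classical over nonclassical monocytes. Rplp1, a stalk protein like Rpl12, had a log2 fold change of -2.31 in nonclassical monocytes and Rplp0 one of -1.07. Of 22 translation factors and other TOP genes, 18 fell in NK cells, 16 in B cells and 18 in nonclassical monocytes, with medians of -0.45, -0.34 and -0.70 and 1 gene rising in B cells. Eef1a1, which brings aminoacyl-tRNA to the ribosome, had a log2 fold change of -2.44 in nonclassical monocytes, below the members' median. The background shares of these contrasts are those given for the members.

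Ribosome biogenesis genes did not follow the members between the monocyte classes. Of 28 tested, 12 fell in NK cells, 21 in B cells and 23 in nonclassical monocytes against CD4 T cells (Fbl, the methylase of ribosomal RNA, at -1.66 in the last). In classical over nonclassical monocytes 7 fell and 1 rose, with a median of -0.39 where the members' median was 0.55. Of 72 mitochondrial ribosomal protein genes 39 fell and 10 rose in nonclassical monocytes against CD4 T cells, with a median of -0.31, less than that of the cytosolic set. Of 21 growth and translation control genes 8 rose and 6 fell there, near the background. Among those named after their values were seen, Myc, which drives ribosome production, was at -4.18 and Eif4ebp1, a repressor of cap-dependent translation, at 2.57, but the growth-promoting kinases Akt1 and Mtor and the mTOR activator Rheb also rose, by 2.20, 0.76 and 1.07.

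Few genes of these lists passed 1.5-fold in SCI over Sham in CD4 T cells. There 0 of 5 other ribosomal proteins, 1 of 22 translation genes, 2 of 27 biogenesis genes, 2 of 16 control genes and 2 of 69 mitochondrial ribosomal protein genes were 1.5-fold higher, and 0, 0, 1, 0 and 1 lower (background 11.6% higher and 1.09% lower). Their medians were 0.04, 0.06, 0.02, 0.13 and -0.11, against 0.07 for all genes.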

How the data were processed

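Blood of 4 groups was measured by droplet single-cell RNA sequencing, 1 library per group. The deposited matrices hold UMI counts per gene and barcode, not normalized, made by the authors with Cell Ranger 4, per the file headers, on the mRatBN 7.2 build, per the submitters' processing notes. The labels' extraction protocol describes a bulk poly(A) preparation and was not used. All barcodes are listed, so those with at least 500 UMIs and 200 genes were kept. Classes came from marker gates, no clustering or doublet caller was run, and barcodes in more than 1 gate were left out. Groups came from sample titles, although the SCI files carry another tag than the other 3.

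Shares carry exact Clopper-Pearson 95% intervals and CPM exact Poisson intervals. These cover counting error only. Between libraries a gene was called at 1.5-fold with at least 50 UMIs in 1 of them, with no test. Between classes, UMIs summed per library and class (4 libraries, 6 leukocyte classes) were tested with edgeR 4.0.16 in R 4.3.3 (TMM, filterByExpr, quasi-likelihood, library as a block, adjusted p under 0.05). Library is the block because every class of a group comes from 1 library. The block removes differences between libraries that all classes share. These p-values therefore measure how far class differences vary over 4 libraries of different treatment. All 6 classes share 1 fit and its estimate of the spread, and each SE was derived from the fold change and test statistic of that fit. Tested on simulated counts for NK over CD4 (8532 genes), the script called 100% of 2-fold and 16% of 1.25-fold rises and 0.108% of unchanged genes. The simulation used a fixed spread and changed genes drawn at random, with no shift common to the members. These rates therefore need not hold for the members. DESeq2 1.42.0 was an alternative.

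Members and lists were chosen with earlier results of these data known. Named genes were the 5 highest and 5 lowest members per comparison in CD4 T cells, the 3 highest and 3 lowest called per class contrast, the 5 most abundant, set paralog pairs, the Diamond-Blackfan list, Rps6, Rps27a, Rps19bp1 and Rpl13a. Rpl12, Rpl41, Rps2, Rpl10, Rpl18, Rps14 and Rps25 in other places, and genes named from lists, were chosen after their values were seen. Genes with near-identical copies or pseudogenes are uncertain, since reads that fit several genes may not have been counted. Some items are not reported here.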

Additional observations from a re-analysis of the deposited data

Results flagged for a closer look

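The ribosomal protein share of erythroid barcodes differed in sign from that of the leukocyte classes as computed, and the difference was not tested. SCI over Sham gave a log2 ratio of 0.31 in erythroid barcodes and -0.23 to -0.05 in the 6 leukocyte classes. MSC-i.t over SCI gave -0.40 against 0.06 to 0.22. MSC-i.v over SCI gave -0.0196, close to no change, against 0.03 to 0.23. The CD4 T cell values of the first and last comparison, -0.05 and 0.03, carry no direction. The first changed sign with the marker minimum doubled. The last stayed positive against SCI under the alternatives given below, but MSC-i.v over Sham was -0.0137. Each value compares 1 library with 1 other, and the comparisons share the SCI library. Of the UMIs outside hemoglobin and mitochondrial genes the erythroid shares were 12.5%, 14.6%, 12.5% and 14.0%, with the libraries ordered as in the report.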

How the results depend on the processing

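Of the values that answer a comparison, 156 under an alternative kept their direction and size, 50 moved and 2 turned, and of those of single named genes 405 were kept, 49 lost their call, 16 moved and 5 turned. The order of CD4 T cells against the other classes held in all 4 libraries under the alternatives run on it. In CD4 T cells the SCI over Sham share ratio was 0.000988 with the marker minimum doubled (49 to 124 cells per library were left), -0.10 at 2000 to 6000 UMIs per barcode, -0.0434 without hemoglobin and mitochondrial UMIs and -0.0544 as a median over cells. MSC-i.t over SCI was 0.11 at that depth and 0.0376 with Sham as reference. MSC-i.v over SCI was 0.00668 with the minimum doubled, 0.12 at that depth, 0.0507 without hemoglobin and mitochondrial UMIs, 0.0403 as a cell median and -0.0137 with Sham as reference.

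Counts of members past 1.5-fold in CD4 T cells in SCI over Sham were 0 higher and 3 lower at 2000 to 6000 UMIs, 2 lower with the minimum doubled, and 4 higher and 4 lower with 1 UMI as the minimum. In MSC-i.t over SCI they were 0 higher and 0 lower with Sham as reference, and 1 lower with a mitochondrial share of 1% to 20%, 0 with the minimum doubled, 1 at 2000 to 6000 UMIs and 5 with 1 UMI as the minimum. In MSC-i.v over SCI they were 0 higher and 0 lower with the minimum doubled, 3 higher and 4 lower with 1 UMI as the minimum, 1 lower at 2000 to 6000 UMIs and 0 lower with Sham as reference.

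Between classes, members higher in CD8 than CD4 T cells numbered 11 with library totals, 0 without the library block (replicate block) and 18 to 68 with 1 library left out. The 1 lower member became 0 without the block and with the minimum doubled. In NK over CD4 the members higher were 2 with library totals, 1 by DESeq2, 1 with the minimum doubled and 0 to 1 with a library left out. In B over CD4 the 1 higher became 0 with the minimum doubled. In nonclassical monocytes over CD4 the 2 higher became 0 without the block and with the minimum doubled, 1 with a mitochondrial share of 1% to 20%, 1 without hemoglobin and mitochondrial UMIs, and 1 to 2 with a library left out. In classical over nonclassical monocytes the 1 lower became 5 with library totals, 0 without the low-count filter, 0 with the minimum doubled, 0 without hemoglobin and mitochondrial UMIs, and 0 to 1 with a library left out. The block changed no other count by over 1.5 times. Among named genes, Rpl21 (row ENSRNOG00000032803) turned to 0.00866 in MSC-i.t over SCI and Rpl26-ps1 to 0.45 in MSC-i.v over SCI with the minimum doubled, and with library totals Rps27l turned to 0.0222 in nonclassical monocytes over CD4 and Rps23 to -0.0718 and Rpl35a to -0.0683 in classical over nonclassical monocytes. The causes were not tested.

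With 1 library per group no difference between groups has a replicate check. The classical monocytes of SCI (61 cells) had the widest interval of the share among leukocyte classes. Of simulated 1.25-fold rises in genes drawn at random 16% were called. Small class differences can be missed, but how often this holds for the members was not tested.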
